A study of Homo sapiens with 19 samples.

Results

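Regulators of apoptosis from the BCL2 family were followed through RNA-seq of human melanoma cells and melanocytes depleted of BRG1 or MITF. The 10 genes were listed by name and matched by symbol to the Ensembl identifiers of the count tables, and all 10 were found among the 44717 identifiers listed for any sample. They comprise 4 survival genes (BCL2, BCL2L1, BCL2A1, MCL1), 5 BH3-only genes (BCL2L11, BMF, BID, BAD, BIK) and 1 effector gene (BAK1).

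The 19 samples form 7 groups from 501Mel, a human melanoma cell line, and Hermes 3A, an untransformed human melanocyte line. 501Mel cells carried a control hairpin labelled shSCR1 (n = 3) or shSCR2 (n = 2), a hairpin against BRG1, the ATPase of a chromatin remodelling complex encoded by SMARCA4 (shBRG1, n = 3), or a hairpin against MITF, the lineage transcription factor of melanocytes (shMITF, n = 2). Hermes 3A cells carried shSCR, shBRG1 or shMITF (n = 3 each), so that both knockdowns in this line share their controls. Counts were given for 34033 genes in Hermes 3A shMITF, 41467 in 501Mel shSCR2 and shMITF, and 42224 in the other groups. The Hermes 3A shMITF samples thus had no controls with the same gene list. In that comparison the knockdown and this difference cannot be told apart. All groups were infected with lentiviral hairpin vectors and selected with puromycin, with a single hairpin for each target. The Hermes 3A medium also held TPA, cholera toxin, stem cell factor and endothelin-1, so that cell line and medium cannot be told apart. The sources used here do not say how shSCR1 and shSCR2 differ.

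BCL2 family proteins decide at the mitochondrial outer membrane whether a cell enters the intrinsic pathway of apoptosis. The survival proteins hold the pore-forming effectors BAK and BAX in check, and the BH3-only proteins, which sense stress, bind the survival proteins or activate the effectors. In melanocytes BCL2 is known as a target of MITF and a survival factor of the lineage, and BCL2A1 is known as an MITF target amplified in some melanomas.

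The promoters are shown first, since MITF binds E-box motifs and BCL2A1 and BMF changed in some, but not all, of the knockdown comparisons described here. Why they changed was not tested. RefSeq promoter windows (250 bases before the start, GRCh38.p14) were held for 8 of the 10 genes, as 15 windows. Both strands were searched for CACGTG, for CATGTG (reverse complement CACATG) and for the longer TCATGTG (reverse complement CACATGA), which contains CATGTG. Of 35116 windows of the same length, 6.34% held CACGTG, 9.42% held CATGTG and 2.52% held TCATGTG. Of the 15 windows, 1 held TCATGTG, that of BCL2A1, from 26 to 20 bases before the start. Its surroundings at chr15:79971204-79971233 (minus strand) are shown with TCATGTG in capitals, beside a stretch of BID at chr22:17774071-17774100 (minus strand) with CACGTG in capitals. This is a single site lying in 2 overlapping windows of BID, and no window of another of these genes held CACGTG. The last stretch lies in a BMF window, at chr15:40108893-40109129 (minus strand), from 250 to 14 bases before the start. None of the 3 motifs was found there. Capitals mark the general E-box form CANNTG, held by 61.8% of all windows and by 7 of the 15. Another BMF window, chr15:40106917-40107216 (minus strand), not shown, held this form as CAGGTG. These matches lay from 236 to 231 and from 118 to 113 bases before its start.
BCL2A1: tccatgtatcaTCATGTGtcataactcagt
BID: tgtgtcctctcCACGTGgcctggggattca
BMF: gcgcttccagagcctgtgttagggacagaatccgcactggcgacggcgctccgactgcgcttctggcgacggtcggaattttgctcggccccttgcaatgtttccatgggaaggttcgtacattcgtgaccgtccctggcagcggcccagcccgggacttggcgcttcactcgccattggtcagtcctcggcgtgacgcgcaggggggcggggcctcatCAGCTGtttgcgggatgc
These matches are letters in a window and were not tested for binding.

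Sample depths ran from 29158502 to 78857900 reads on genes. In CPM, read counts scaled to a common library size with normalisation over all 19 samples, SMARCA4 lay between 35.8 and 40.6 in 501Mel shBRG1 against 178 to 193 in shSCR1, and between 44.4 and 47.5 in Hermes 3A shBRG1 against 227 to 255 in shSCR. MITF lay between 494 and 546 in 501Mel shMITF against 1048 and 1186 in shSCR2, and between 456 and 719 in Hermes 3A shMITF against 1014 to 1119 in shSCR. In 501Mel shSCR1, however, MITF lay between 513 and 609, close to the shMITF samples, and in shBRG1 cells it was at 191 to 218. The coefficient of variation between replicates was 4.48% to 5.78% in 4 groups, but 15.5% in 501Mel shSCR2, 15.9% in 501Mel shMITF and 26.7% in Hermes 3A shMITF. The summed level of 6 melanocyte marker genes moved with the knockdowns: it was 28824 to 30940 CPM in 501Mel shSCR1 and 2923 to 3199 in shBRG1, 19705 to 22084 in shSCR2 and 10831 to 11299 in shMITF, and 62356 to 63445 in Hermes 3A shSCR, 29477 to 31119 in shBRG1 and 25397 to 33574 in shMITF. The part of this in the results was not tested. Of 6 fibroblast markers, 3 to 5 stayed under 1 CPM in every sample of each group, but their sum also moved. In 501Mel it was 3.57 to 4.98 CPM in shSCR1, 16.1 to 19.5 in shBRG1, 7.71 to 8.93 in shSCR2 and 7.47 to 13.8 in shMITF. In Hermes 3A it was 71.4 to 80.1 in shSCR, 139 to 148 in shBRG1 and 113 to 218 in shMITF. In 501Mel shBRG1, 4 of the 5 markers tested were called up, against 21.7% of all genes tested. There, 4 of the 6 stayed under 1 CPM in every sample. Of 6 keratinocyte markers, KRT1, KRT5 and KRT14 were not listed for every sample, and a marker not listed was not counted as low. Counted so, 2 to 5 stayed under 1 CPM, and the lower counts do not mean that more markers exceeded 1 CPM. The sum of the listed markers was 27.5 to 37.7 CPM in the 501Mel groups. It was 32.8 to 35.4 in Hermes 3A shSCR, 28.2 to 30.4 in shBRG1 and 44.0 to 65.8 in shMITF. The part of these markers in the results was not tested either.

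**Figure D1:**
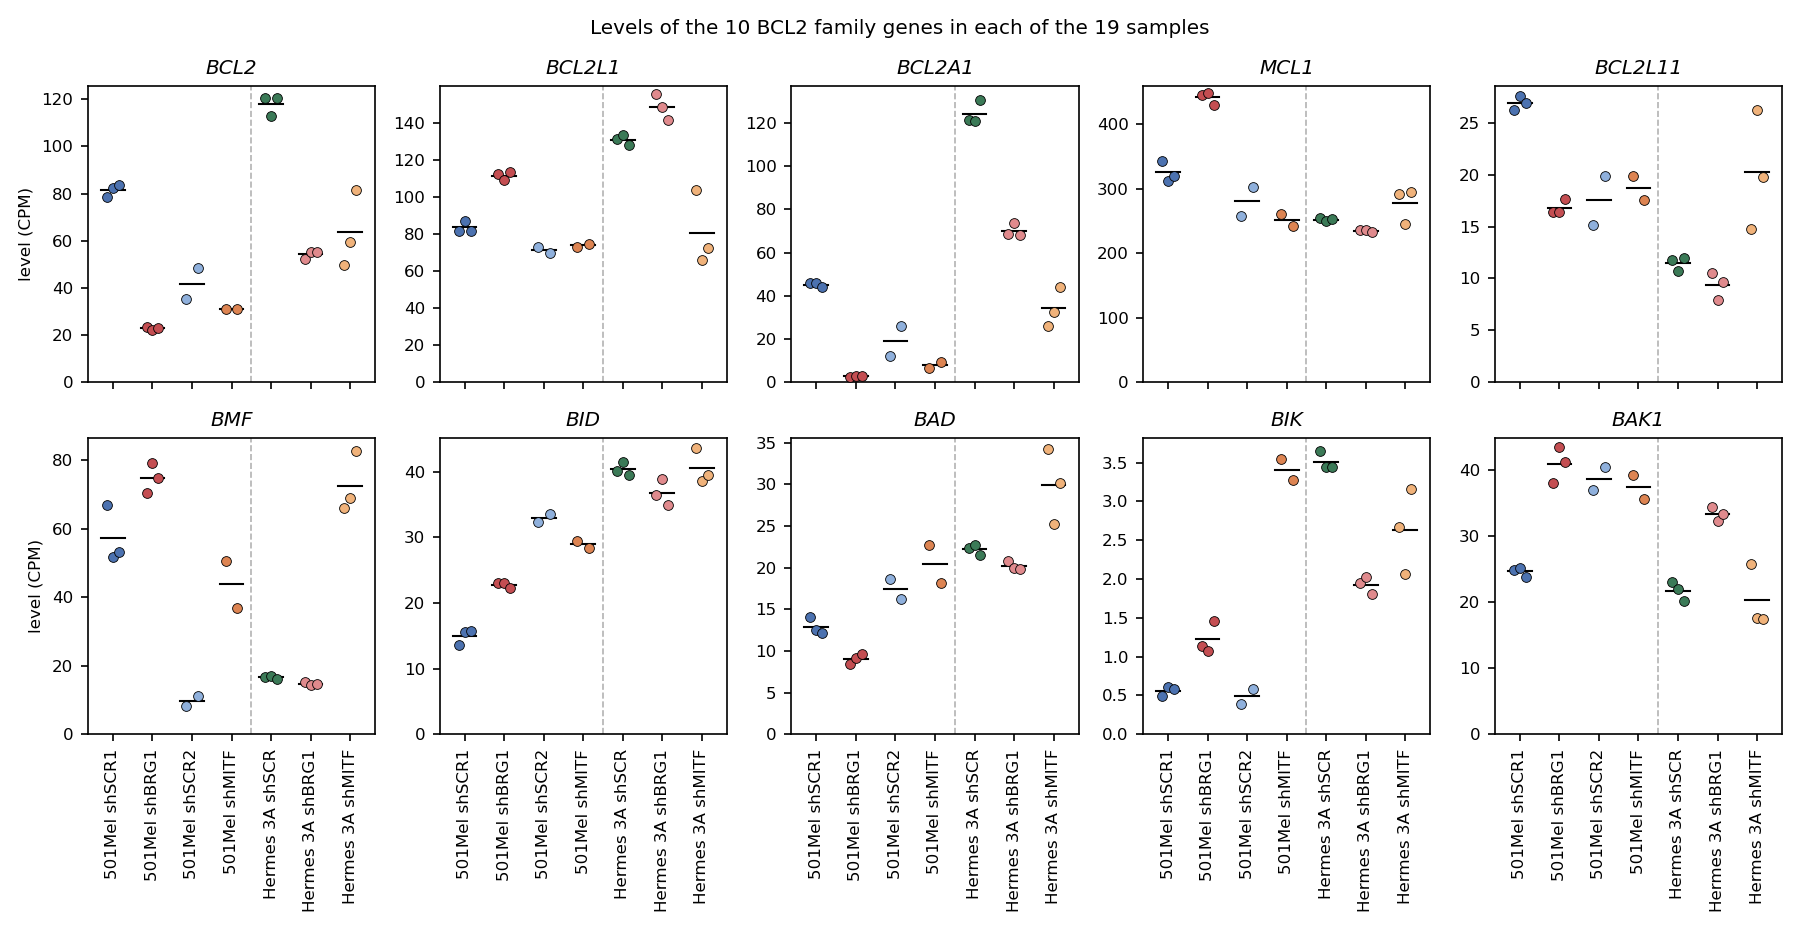
Level of each of the 10 genes (CPM normalised over all 19 samples, linear axes from 0) in each sample of the 7 groups. Points are samples, horizontal lines are group means, and the dashed line separates 501Mel from Hermes 3A. BCL2A1 was lowest in 501Mel shBRG1, and BMF was high in 501Mel shSCR1 and low in 501Mel shSCR2.

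To set genes beside one another, CPM was divided by the length of each gene's merged exons (CPM per kb). MCL1, a short-lived survival protein of most cell types, was the most abundant of the 10 in 501Mel shSCR1 at 74.3 ± 3.6 CPM per kb (SD, n = 3), followed by BCL2A1 at 41.5 ± 0.92 and BCL2L1, which encodes BCL-XL, at 25.2 ± 0.96. In Hermes 3A shSCR the order was BCL2A1 at 114 ± 5.1, MCL1 at 57.6 ± 0.53 and BCL2L1 at 39.5 ± 0.76 CPM per kb. These neighbours did not overlap between samples in either group. In the other 501Mel control, shSCR2 (n = 2), MCL1 led at 64.1 ± 7.2 CPM per kb. BCL2L1 came second there at 21.5 ± 0.59 and overlapped BCL2A1 at 17.5 ± 8.7.

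The family's namesake BCL2 stood below them at 6.94 ± 0.23 CPM per kb in 501Mel shSCR1, where it overlapped BAD, and at 10.0 ± 0.37 in Hermes 3A shSCR, where it overlapped BAK1. In 501Mel shSCR1 the death-promoting genes ran from BAK1 (11.1 ± 0.33 CPM per kb) and BMF (10.5 ± 1.5), which overlapped each other, through BAD (7.56 ± 0.59), BCL2L11 (4.04 ± 0.10) and BID (3.36 ± 0.27) to BIK (0.589 ± 0.065). Hermes 3A shSCR gave another order, with BAD (13.0 ± 0.36) and BAK1 (9.80 ± 0.68) on top, BID at 9.08 ± 0.22, BIK at 3.69 ± 0.13, BMF at 3.04 ± 0.094 and BCL2L11 at 1.73 ± 0.10 CPM per kb. The order also differed between the 501Mel controls. In shSCR2 BAK1 (17.5 ± 1.1), BAD (10.2 ± 1.0) and BID (7.39 ± 0.19) stood above BCL2L11 (2.63 ± 0.50) and BMF (1.77 ± 0.37). Some of these orders rested on the length used. With the longest transcript as length, BID (5.44 to 6.28) stood above BCL2L11 (5.01 to 5.27) in 501Mel shSCR1. In Hermes 3A shSCR, BID (15.9 to 16.6) and BCL2 (15.2 to 16.2) then stood above BAK1 (9.07 to 10.4) without overlap. A nuclease step in the library preparation lowers abundant cDNAs, so levels of different genes are compressed to an extent that was not measured.

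**Figure D2:**
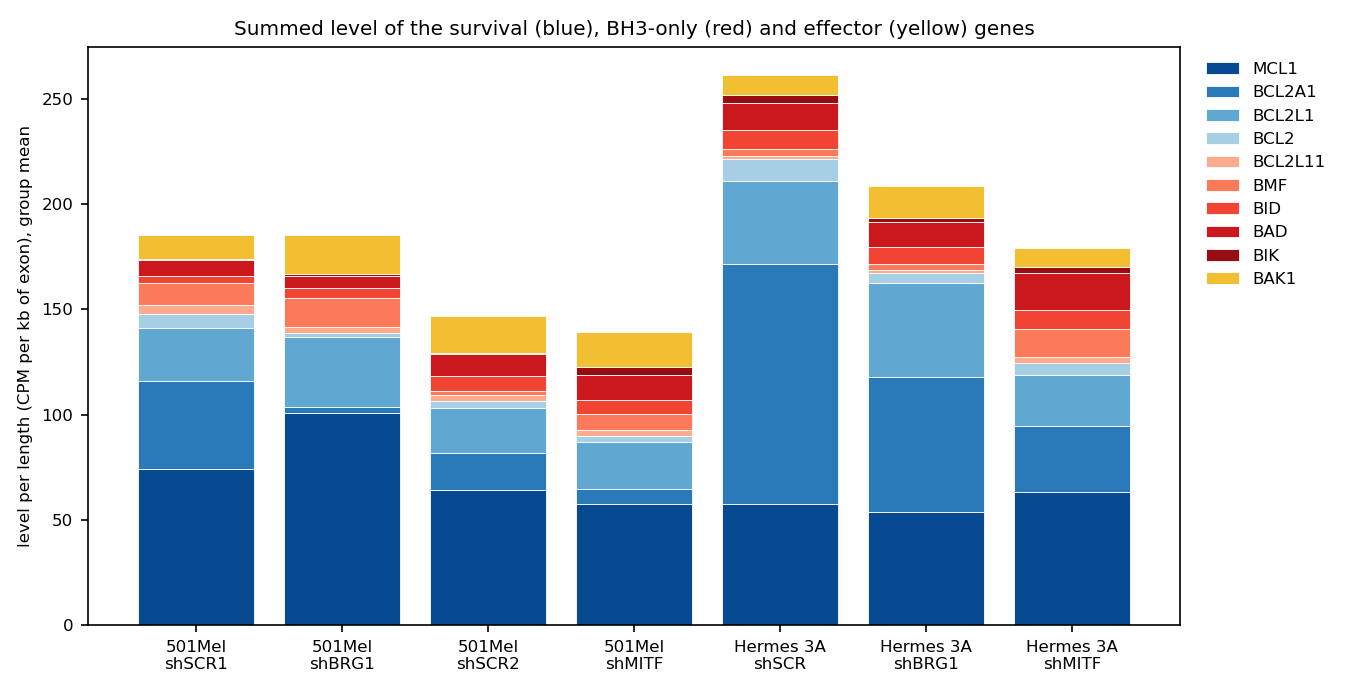
Group means of the level per length (CPM per kb of merged exon), stacked over the 10 genes, with survival genes in blue, BH3-only genes in red and the effector gene BAK1 in yellow. BCL2A1 takes 114 of the Hermes 3A shSCR bar and 2.56 of the 501Mel shBRG1 bar.

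All 10 genes differed between the control cells of the lines, 501Mel shSCR1 and Hermes 3A shSCR, by an adjusted p under 0.05, 4 higher and 6 lower in 501Mel, where 41.4% of all genes tested were higher and 40.2% lower. With a log2 change over 1 required as well, 2 were called higher (background 23.1%) and 3 lower (background 18.2%). In these pairs of groups, normalised together, BMF measured 63.5, 48.6 and 50.4 CPM in 501Mel shSCR1 against 15.7, 16.3 and 15.1 in Hermes 3A shSCR (log2 1.79 ± 0.08, SE, adjusted p = 4.4e-16), and BCL2L11 24.9, 26.0 and 25.4 CPM against 11.1, 10.3 and 11.3 (log2 1.22 ± 0.07, adjusted p = 6.9e-14). BIK, a BH3-only protein of the endoplasmic reticulum, measured 0.468, 0.573 and 0.553 CPM against 3.44, 3.29 and 3.26 (log2 -2.64 ± 0.19, adjusted p = 3.8e-12), BCL2A1 was lower by -1.46 ± 0.05 and BID, which links death receptors to mitochondria, by -1.44 ± 0.07. The groups did not overlap in any of the 10 genes, these 5 among them. Overlap was not read for all genes, so whether this sets the 10 genes apart is not known.

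That comparison depended on which control stood for 501Mel. With shSCR2 in place of shSCR1, BMF turned from higher to lower in 501Mel (log2 -0.79, adjusted p = 0.0004), BCL2L11 kept its direction at 0.60, BID stood at -0.31, BCL2A1 at -2.69 and BIK at -2.79, and MCL1 no longer passed (0.14 against 0.37). BAK1, higher by 0.18 ± 0.07 with shSCR1, lost its call without 501Mel shSCR1 replicate 2 (adjusted p = 0.062) or without Hermes 3A shSCR replicate 3 (adjusted p = 0.113).

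Set against each other, the 501Mel control groups differed in 9 of the 10 genes, 3 higher in shSCR2 (background 35.3%) and 6 lower (background 34.5%), of which 1 was called higher (background 12.3%) and 2 lower (background 20.7%). BMF measured 8.33 and 10.96 CPM in shSCR2 against 66.6, 51.2 and 53.3 in shSCR1 (log2 -2.54 ± 0.16, adjusted p = 4.1e-06). BID measured 32.8 and 33.3 CPM against 13.5, 15.5 and 15.7 (log2 1.15 ± 0.09, adjusted p = 7.0e-06). Both genes separated the control groups without overlap. The passes of 3 genes with small differences were less firm, since MCL1 did not pass without shSCR1 replicate 1 (adjusted p = 0.099), shSCR1 replicate 3 (0.093) or shSCR2 replicate 1 (0.416), nor BCL2L1 (0.064) or BAD (0.0502) without shSCR1 replicate 2, and 7 of the 10 genes passed with DESeq2 and 7 with a replicate block.
BCL2A1 measured 12.5 and 25.6 CPM in shSCR2 against 45.6, 45.4 and 44.0 in shSCR1 (log2 -1.21 ± 0.28, adjusted p = 0.0092), and BCL2 35.6 and 48.2 against 78.4, 81.7 and 83.8 (log2 -0.95 ± 0.12). Without shSCR2 replicate 1, the replicate lower in both survival genes, 1 gene instead of 2 was called lower. Comparisons with shMITF in 501Mel therefore start from controls with less BMF, BCL2 and BCL2A1 than those of shBRG1.

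BRG1 silencing in 501Mel cells split the survival genes: BCL2A1 fell 17.0-fold and BCL2 3.73-fold, while MCL1 and BCL2L1 rose 1.30-fold and 1.27-fold. Of the 10 genes, 6 rose (background 41.2%) and 4 fell (background 39.1%), and with the fold threshold 1 was called up (background 21.7%) and 2 down (background 17.4%). The median log2 change was -0.77 over the 4 survival genes and 0.43 over the 6 death-promoting genes, against 0.05 over all genes tested. In bulk RNA, fewer cells expressing a gene and less RNA per cell cannot be told apart.

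BCL2A1 (chr15:79960889-79971446, minus strand, GRCh38) measured 53.3, 53.6 and 51.5 CPM in shSCR1 and 2.87, 3.24 and 3.23 in shBRG1 (log2 -4.09 ± 0.07, adjusted p = 4.7e-23). BCL2 (chr18:63123346-63320128, minus strand) measured 91.5, 96.4 and 98.0 CPM in shSCR1 and 25.9, 24.8 and 25.8 in shBRG1 (log2 -1.90 ± 0.05, adjusted p = 7.1e-20). Every silenced sample of both genes lay far below every control.
MCL1 (chr1:150574551-150579738, minus strand) measured 399, 365 and 374 CPM in shSCR1 and 496, 500 and 481 in shBRG1 (log2 0.38 ± 0.05, adjusted p = 1.4e-07). BCL2L1 (chr20:31664452-31723989, minus strand) measured 94.9, 102 and 95.7 CPM and then 125, 121 and 127 (log2 0.35 ± 0.05, adjusted p = 3.8e-07). The rises were small beside the falls, but their groups did not overlap either.

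Among the death-promoting genes, 4 rose and 2 fell after BRG1 silencing in 501Mel cells. BAK1 (chr6:33572547-33580293, minus strand), which forms the pore, measured 28.98, 29.4 and 27.8 CPM in shSCR1 and 42.2, 48.5 and 46.1 in shBRG1 (log2 0.66 ± 0.06, adjusted p = 3.9e-10). BID (chr22:17734138-17774770, minus strand) rose from 15.8, 18.3 and 18.3 CPM to 25.7, 25.8 and 24.9 (log2 0.55 ± 0.07, adjusted p = 9.0e-08). BMF (chr15:40087890-40108892, minus strand), a BH3-only protein known for release from the cytoskeleton under detachment, rose from 77.7, 60.4 and 62.4 CPM to 78.5, 88.3 and 83.6 (log2 0.32 ± 0.08, adjusted p = 0.0016), a call that was lost without shBRG1 replicate 2 (adjusted p = 0.072).
BIK (chr22:43110748-43129712, plus strand) rose from 24, 32 and 20 counts, or 0.572, 0.711 and 0.685 CPM, to 67, 62 and 74 counts, or 1.26, 1.19 and 1.63 CPM (log2 1.05 ± 0.21, adjusted p = 1.0e-04). Per length it was the least abundant of the 10 genes in both groups, and its log2 change went under 1 without shSCR1 replicate 1 (0.92) or without shBRG1 replicate 3 (0.89).
BCL2L11 (chr2:111119378-111168447, plus strand), which encodes the potent activator BIM, fell from 30.5, 32.2 and 31.5 CPM to 18.3, 18.3 and 19.7 (log2 -0.74 ± 0.06, adjusted p = 7.3e-11). BAD (chr11:64269830-64284704, minus strand), a BH3-only protein controlled by growth factor kinases, fell from 16.4, 14.7 and 14.2 CPM to 9.43, 10.2 and 10.8 (log2 -0.58 ± 0.08, adjusted p = 5.2e-07). Neither gene overlapped between the groups.

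When both 501Mel control groups were pooled as the reference for shBRG1, 6 of the 10 genes still passed, BCL2 at -1.55, BCL2A1 at -3.66, MCL1 at 0.50, BCL2L1 at 0.48, BAD at -0.72 and BIK at 1.16, whereas BMF (0.95), BID (0.01), BAK1 (0.40) and BCL2L11 (-0.48) did not. Scaling by library size alone moved the median over all genes from 0.05 to 0.40 and the share of calls that were increases from 55.5% to 72.1%. The direction of each of the 10 changes held under that scaling, with BCL2L11 at -0.39 and BAD at -0.23.

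**Figure D3:**
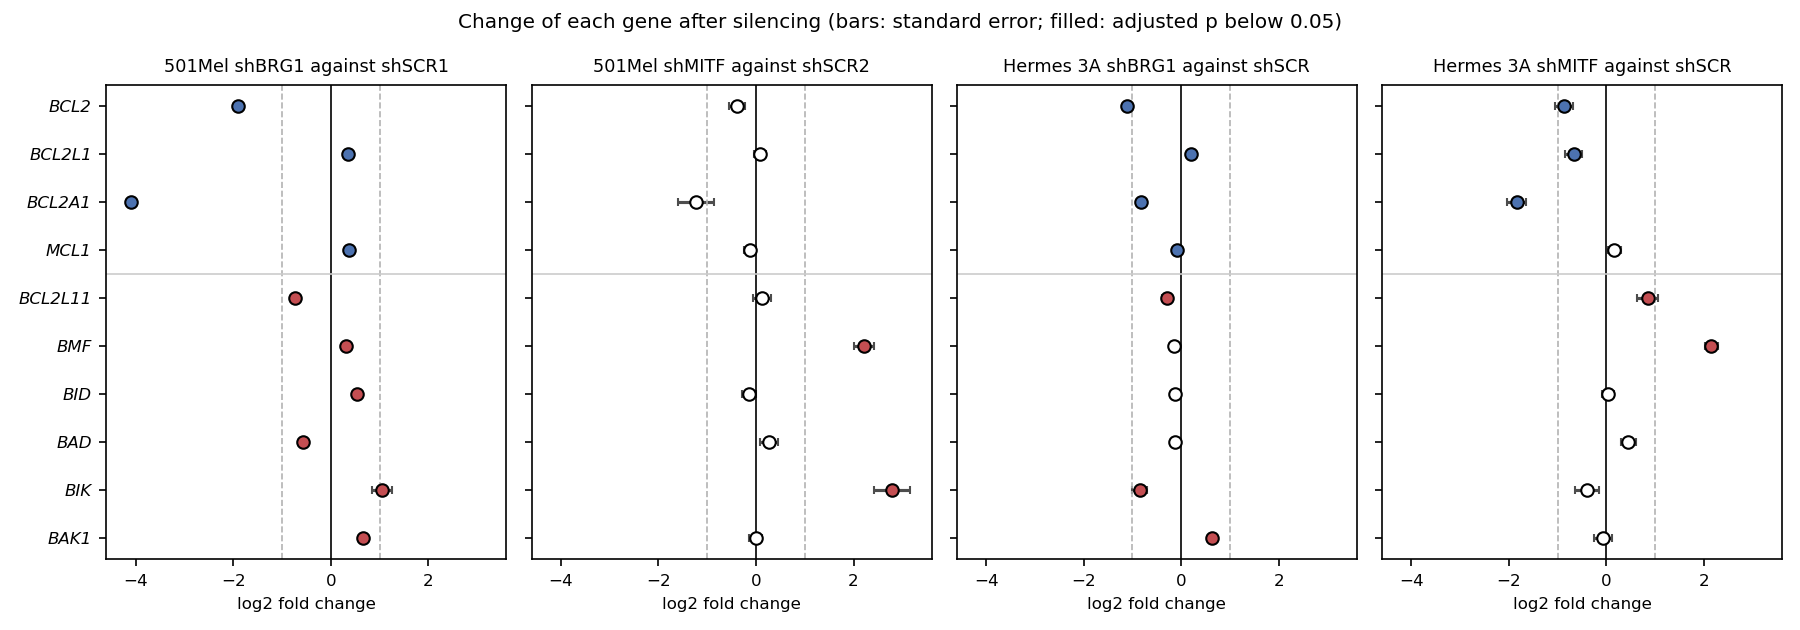
Log2 fold change with its standard error for the 10 genes in the 4 knockdown comparisons, survival genes above the grey line and death-promoting genes under it. Filled symbols have an adjusted p below 0.05 and dashed lines mark a log2 change of 1 in each direction. BCL2A1 reaches -4.09 in 501Mel shBRG1, and BMF lies at 2.21 and 2.15 in the shMITF comparisons.

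BRG1 silencing in Hermes 3A cells lowered the same pair of survival genes by less, BCL2 by 2.16-fold and BCL2A1 by 1.76-fold. Of the 10 genes, 2 rose (background 28.2%) and 5 fell (background 28.6%). With the fold threshold none was called up (background 5.78%), by edgeR or by DESeq2, although 2 rose at an unadjusted p under 0.05 in edgeR, and 1, BCL2, was called down (background 3.47%). The median log2 change was -0.45 over the survival genes and -0.14 over the death-promoting genes, against 0.01 over all genes tested.

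BCL2 measured 108, 102 and 108 CPM in shSCR and 47.1, 49.9 and 50.5 in shBRG1 (log2 -1.11 ± 0.04, adjusted p = 3.2e-18). BCL2A1 measured 108, 110 and 117 CPM and then 61.6, 66.7 and 62.2 (log2 -0.81 ± 0.05, adjusted p = 4.3e-15). For both genes the silenced samples sat together, well under the controls.
BCL2L1 rose from 117, 121 and 115 CPM to 140, 134 and 129 (log2 0.19 ± 0.04, adjusted p = 2.3e-04). MCL1 stood at 227, 226 and 226 CPM and then at 212, 213 and 212 (log2 -0.09 ± 0.04, adjusted p = 0.040). This fall of MCL1 turned to 0.01 when only library sizes were scaled, and it did not pass without shSCR replicate 1 (adjusted p = 0.113) or without any one of the shBRG1 replicates (adjusted p from 0.079 to 0.085).
BAK1 rose from 20.6, 19.9 and 18 CPM to 30.8, 29.2 and 30.4 (log2 0.63 ± 0.07, adjusted p = 2.4e-09). BIK fell from 3.26, 3.12 and 3.09 CPM to 1.75, 1.84 and 1.65 (log2 -0.85 ± 0.15, adjusted p = 2.2e-05). Neither overlapped between the groups.
BCL2L11 fell from 10.5, 9.72 and 10.7 CPM to 9.45, 7.18 and 8.81 (log2 -0.29 ± 0.09, adjusted p = 0.010), a call lost without shBRG1 replicate 2 (adjusted p = 0.118). BMF (-0.16 ± 0.07), BID (-0.12 ± 0.06) and BAD (-0.13 ± 0.07) did not pass, though BMF did without shSCR replicate 3 (adjusted p = 0.048) and BID did without shBRG1 replicate 2 (adjusted p = 0.028).

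The difference between the lines in the shBRG1 effect was tested as an interaction, for which 8 of the 10 genes passed (background 57.9%). The fall of BCL2A1 was larger in 501Mel by -3.30 ± 0.09 on the log2 scale (adjusted p = 3.1e-28) and that of BCL2 by -0.82 ± 0.07 (adjusted p = 4.3e-13). BIK, up in 501Mel and down in Hermes 3A, differed by 1.87 ± 0.27 (adjusted p = 1.3e-07). BAK1 rose in both lines and differed by 0.00 ± 0.09 (adjusted p = 0.99), and BCL2L1 differed by 0.13 ± 0.06 (adjusted p = 0.082), which passed without 501Mel shBRG1 replicate 1 (adjusted p = 0.0059) or replicate 2 (adjusted p = 0.038). The remaining 5 genes differed by 0.43 for MCL1, 0.44 for BMF, 0.64 for BID and -0.48 for both BCL2L11 and BAD.

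MITF silencing in 501Mel cells, with 2 samples a group, raised BMF 4.64-fold and BIK 6.94-fold, and the other 8 genes did not pass the test. Of the 10 genes, 2 rose (background 10.0%) and both were called up (background 5.59%). In edgeR 0 fell (background 10.5%) or were called down (background 3.40%), with 2 lower at an unadjusted p under 0.05, and DESeq2 called 1 down, BCL2A1. Median log2 changes were -0.25 over the survival genes and 0.20 over the death-promoting genes, against 0.01 over all genes tested.

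BMF measured 8.12 and 10.7 CPM in shSCR2 and 50.1 and 37.8 in shMITF (log2 2.21 ± 0.21, adjusted p = 4.3e-04). BIK measured 12 and 43 counts, or 0.388 and 0.570 CPM, in shSCR2 and 161 and 169 counts, or 3.51 and 3.36 CPM, in shMITF (log2 2.79 ± 0.37, adjusted p = 0.0016). Both genes lay higher in each shMITF sample than in each control. The rise of BMF rested on the choice of control: with shSCR1 and shSCR2 pooled it was 0.22 (adjusted p = 0.9), since BMF in shSCR1 lay above the shMITF samples, whereas BIK remained at 2.70 (adjusted p = 0.007).

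BCL2A1 measured 12.2 and 25.1 CPM in shSCR2 and 6.33 and 9.61 in shMITF (log2 -1.23 ± 0.38, adjusted p = 0.063), and BCL2 34.8 and 47.1 against 30.8 and 31.8 (log2 -0.39 ± 0.17, adjusted p = 0.137). Both controls exceeded both silenced samples, with the controls themselves far apart. Without shSCR2 replicate 1, BCL2A1 stood at -1.67 (adjusted p = 2.5e-05) and BCL2 at -0.61 (adjusted p = 0.019), so that 4 genes passed instead of 2. Without shSCR2 replicate 2 they stood at -0.62 (adjusted p = 0.209) and -0.16 (adjusted p = 0.63), so that the size of both differences rested on which control replicate was kept.
MCL1 measured 256 and 294 CPM in shSCR2 and 258 and 249 in shMITF (log2 -0.12 ± 0.12), and BCL2L1 71.9 and 68.0 against 72.3 and 76.5 (log2 0.09 ± 0.12). BCL2L11 (0.13 ± 0.19), BID (-0.15 ± 0.14), BAD (0.27 ± 0.18) and BAK1 (-0.01 ± 0.14) did not pass either.

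MITF silencing in Hermes 3A cells lowered BCL2A1 3.58-fold and raised BMF 4.45-fold, with smaller falls of BCL2 and BCL2L1 and a rise of BCL2L11. Of the 10 genes, 2 rose (background 7.85%) and 3 fell (background 9.15%), and 1 was called up (background 3.35%) and 1 down (background 4.04%). Median log2 changes were -0.77 over the survival genes and 0.24 over the death-promoting genes, against 0.05 over all genes tested. With library sizes alone, the share of calls that were increases went from 45.3% to 56.0%.

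BCL2A1 measured 108, 110 and 116 CPM in shSCR and 23.5, 29.7 and 40.2 in shMITF (log2 -1.84 ± 0.19, adjusted p = 9.8e-04). BMF measured 14.8, 15.5 and 14.3 CPM and then 59.8, 63.2 and 75.04 (log2 2.15 ± 0.14, adjusted p = 3.6e-04). These 2 genes kept their calls whichever single replicate was left out, at -2.07 to -1.69 for BCL2A1 and 2.05 to 2.21 for BMF.
BCL2 fell from 107, 103 and 107 CPM to 45.3, 54.4 and 74.1 (log2 -0.87 ± 0.18, adjusted p = 0.014). BCL2L1 fell from 117, 121 and 114 CPM to 94.4, 60.5 and 65.7 (log2 -0.67 ± 0.17, adjusted p = 0.032). BCL2L11 rose from 10.5, 9.75 and 10.6 CPM to 13.4, 24.1 and 17.97 (log2 0.85 ± 0.21, adjusted p = 0.031).
The groups did not overlap in these 3 genes, but the shMITF samples scattered widely, and without any one of the 3 shSCR replicates all 3 calls were lost (adjusted p from 0.054 to 0.140). BCL2L1 also failed to pass without shMITF replicate 2 (adjusted p = 0.052) or replicate 3 (adjusted p = 0.087), and BCL2L11 without shMITF replicate 3 (adjusted p = 0.062).
BAD measured 19.9, 20.7 and 19.2 CPM in shSCR and 31.1, 23.2 and 27.4 in shMITF (log2 0.45 ± 0.15, adjusted p = 0.067), and passed without shMITF replicate 2 (adjusted p = 0.016). MCL1 (0.16 ± 0.13), BID (0.03 ± 0.12), BIK (-0.39 ± 0.24) and BAK1 (-0.07 ± 0.18) did not pass.

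Between the lines, the shMITF effect differed in 1 of the 10 genes (background 2.99%). This was BIK, higher by 3.18 ± 0.43 on the log2 scale in 501Mel (adjusted p = 0.0029, 0.0016 to 0.022 when single replicates were left out). BMF differed by 0.05 ± 0.25 (adjusted p = 0.95) and BCL2A1 by 0.59 ± 0.41 (adjusted p = 0.49). BCL2L1 differed by 0.75 ± 0.24 (adjusted p = 0.123) and passed without Hermes 3A shMITF replicate 1 (adjusted p = 0.0030).

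In 501Mel, the shBRG1 effect minus the shMITF effect passed for all 10 genes (background 48.1%), each effect being taken against its own control group. BCL2A1 differed by -2.81 ± 0.40, BMF by -1.85 ± 0.22, BIK by -1.69 ± 0.35 and BCL2 by -1.48 ± 0.15. MCL1 (0.52 ± 0.11), BID (0.72 ± 0.13), BAK1 (0.70 ± 0.12) and BCL2L1 (0.29 ± 0.10) were higher with shBRG1, and BCL2L11 (-0.84 ± 0.16) and BAD (-0.82 ± 0.17) lower. The difference of BCL2L1 did not pass without shSCR1 replicate 1 or 3, shSCR2 replicate 1 or shMITF replicate 1 (adjusted p from 0.053 to 0.070). The control groups enter each of these values, and shSCR2 itself differed from shSCR1 by -2.54 in BMF, 1.15 in BID and 0.66 in BAK1.

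The balance among the 10 genes was summarised, as a description without a test, by the share of the 4 survival genes in the summed level per kb of all 10 genes. BAX and other family genes do not enter it. BAX stood at 134 CPM in Hermes 3A shSCR and 31.2 in 501Mel shSCR1, normalised over that pair. The death-promoting sums in these groups were 116 and 137 CPM with all lengths equal. How the share would stand with BAX was not computed. The share over the 10 genes was 79.9% ± 0.42 in 501Mel shSCR1 (SD, n = 3) and 74.96% ± 1.0 in shBRG1, and 72.6% ± 2.4 in shSCR2 (n = 2) and 64.4% ± 2.3 in shMITF. In Hermes 3A it was 84.6% ± 0.66 in shSCR, 80.2% ± 0.41 in shBRG1 and 69.3% ± 1.4 in shMITF. In each knockdown comparison every silenced sample had a lower share than every control, and the shSCR2 samples lay under the shBRG1 samples, which had other controls. With all gene lengths taken as equal this last order was lost, at 77.9% in shSCR2 and 77.7% in shBRG1.
The parts of the share moved differently. In 501Mel the survival sum went from 148 ± 3.3 to 139 ± 1.6 CPM per kb with shBRG1 while the death-promoting sum went from 37.2 ± 1.8 to 46.5 ± 2.3. With all lengths equal this survival sum went the other way, from 535 ± 12 to 578 ± 7.8 CPM. In Hermes 3A the survival sum went from 221 ± 4.7 to 167 ± 4.0 with shBRG1 and to 124 ± 13 with shMITF, while the death-promoting sum was 40.4 ± 1.2, 41.3 ± 0.91 and 54.9 ± 4.3. In 501Mel shBRG1, MCL1 alone stood at 101 ± 2.2 CPM per kb, while BCL2A1 was at 2.56 ± 0.17.

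**Figure D4:**
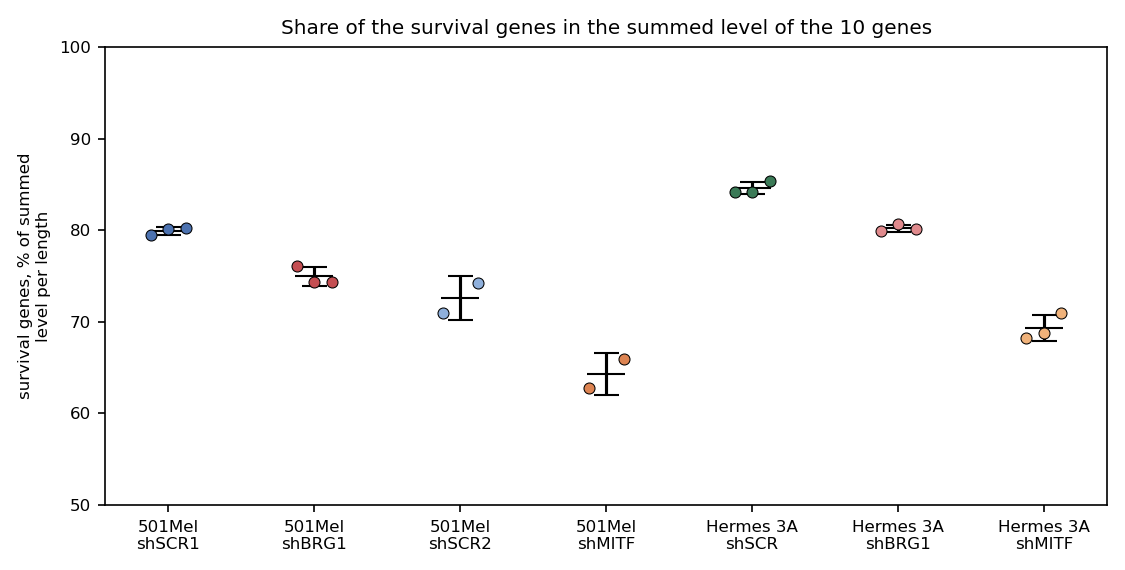
Share of the 4 survival genes in the summed level per length of the 10 genes, in percent, by group. Points are samples, and bars are the group mean with its SD; the axis runs from 50 to 100. The lowest group is 501Mel shMITF at 64.4% and the highest is Hermes 3A shSCR at 84.6%.

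Other genes of the apoptosis pathway were read from lists, whose counts stand beside the same backgrounds as above. Between the control cells of the lines BAX, the effector paired with BAK, stood at 31.2 ± 0.98 CPM in 501Mel shSCR1 and 134 ± 6.6 in Hermes 3A shSCR (log2 -2.10 ± 0.05), while HRK, a BH3-only gene, stood at 31.3 ± 2.1 and 7.19 ± 1.0 (log2 2.11 ± 0.09). Of 13 further BCL2 family genes, 11 were tested in 501Mel shBRG1, of which 7 rose (background 41.2%) and 2 fell (background 39.1%). PMAIP1, which encodes the BH3-only protein NOXA, measured 4.77 ± 0.73 CPM in shSCR1 and 18.7 ± 1.0 in shBRG1 (log2 1.99 ± 0.09, n = 3 each), and BNIP3L, a mitophagy receptor, 211 ± 3.9 and 73.0 ± 4.0 (log2 -1.53 ± 0.05). In 501Mel shMITF 2 of 11 rose (background 10.0%) and 1 fell (background 10.5%), with BNIP3L again lower at -1.39 ± 0.16 and BOK at log2 1.15 ± 0.28, a call lost without shSCR2 replicate 2 (adjusted p = 0.095) or shMITF replicate 2 (adjusted p = 0.065). In Hermes 3A, 4 of 11 rose (background 28.2%) and 3 fell (background 28.6%) with shBRG1, led by HRK at 1.08 ± 0.10, and with shMITF 1 of 10 passed, PMAIP1, which fell (-1.77 ± 0.21, background 9.15%). PMAIP1 thus rose with shBRG1 in the melanoma line and fell with shMITF in the melanocyte line.

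Of 11 genes of the apoptosome and the caspases, 5 rose and 4 fell in 501Mel shBRG1, shares near the background of 41.2% and 39.1%, where the protease gene HTRA2 went from 67.8 ± 3.1 to 28.8 ± 1.4 CPM (log2 -1.23 ± 0.06). With shMITF in 501Mel 0 of 11 passed in edgeR (background 10.0% up and 10.5% down), with 1 higher and 2 lower at an unadjusted p under 0.05 and 1 lower in DESeq2. In Hermes 3A 1 rose (background 28.2%) and 5 fell (background 28.6%) with shBRG1, and 1 passed with shMITF, which fell (background 9.15%).
Of 7 inhibitors of apoptosis, 3 rose (background 41.2%) and 4 fell (background 39.1%) in 501Mel shBRG1. BIRC7, the melanoma inhibitor of apoptosis, went from 276 ± 14 to 38.0 ± 2.4 CPM with shBRG1 (log2 -2.86 ± 0.06) and from 86.6 ± 21 to 28.7 ± 5.1 with shMITF (log2 -1.59 ± 0.20), the latter -2.61 with an adjusted p of 0.0502 when the 501Mel controls were pooled. BIRC5 fell with shBRG1 at -1.32 ± 0.06 and NAIP rose at 1.68 ± 0.11. With shMITF in 501Mel 1 rose (background 10.0%) and 2 fell (background 10.5%). In Hermes 3A 3 rose (background 28.2%) and 2 fell (background 28.6%) with shBRG1, and 1 passed with shMITF, which fell (background 9.15%). Between the control cells BIRC7 was 223.7 ± 13 CPM in 501Mel and 1.41 ± 0.10 in Hermes 3A.
Of the death receptor and adaptor genes, 3 rose (background 41.2%) and 5 fell (background 39.1%) among 9 tested in 501Mel shBRG1, and 3 of 8 rose in 501Mel shMITF (background 10.0%). In Hermes 3A, with 10 tested, 7 rose (background 28.2%) and 2 fell (background 28.6%) with shBRG1, and 1 rose (background 7.85%) and 2 fell (background 9.15%) with shMITF. TNFRSF21, which encodes death receptor DR6, rose with shMITF in both lines, by 1.02 ± 0.21 in 501Mel (lost without shMITF replicate 2, adjusted p = 0.070) and 2.11 ± 0.29 in Hermes 3A. FAS fell with shMITF in Hermes 3A (-1.36 ± 0.21), from 44.9 ± 4.5 to 17.4 ± 5.0 CPM, and was close to 0 in 501Mel shSCR1, at 0.241 ± 0.12 CPM.

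The genes whose log2 CPM followed each survival gene most closely over the 7 group means were sought among 12532 genes, as a description. For BCL2A1 they were ADAM9 (Pearson r = 0.997), GUSB (0.991) and PYGL (0.991), and for BCL2 ATF6 (0.997), PWWP3A (0.990) and SCPEP1 (0.982). For MCL1 they were SNHG7 (0.990), SDC4 (0.984) and RPL37 (0.980), and for BCL2L1 ASTN2 (0.965), BTBD9 (0.964) and HSD17B6 (0.963). The 7 means share libraries of 2 cell lines, and such values are the top of a search over many genes.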

How the data were processed

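RNA-seq of 19 samples was analysed from raw counts per Ensembl gene that the authors deposited, without normalization. The authors depleted total RNA of ribosomal RNA, normalised libraries with a duplex-specific nuclease and sequenced them on a HiSeq2500. The submitters' processing notes name hg19, CASAVA 1.8, TopHat 1.4.1 and Bowtie 0.12.7, and the counting program and its strand setting are not given in the sources used here. Between 29158502 and 78857900 reads per sample fell on genes, which limits the precision of BIK most. BAD, BAK1, BCL2L1 and BCL2L11 overlap genes on the opposite strand that were also counted, and BCL2, BID and MCL1 overlap one on their own strand, so that reads could be shared.

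Each comparison was fitted on its own groups in edgeR 4.0.16 (R 4.3.3) with filterByExpr, TMM, glmQLFit and glmQLFTest over all genes listed for both groups, and Benjamini-Hochberg adjustment. All 10 genes passed the filter in every comparison. Genes with an adjusted p under 0.05 are said to rise or fall, and those with an absolute log2 change over 1 as well are called. Overlap of groups was read for listed genes only, so the share of all genes without overlap is not known. Standard errors are the log2 change divided by the root of F. CPM is TMM-scaled within a comparison, or over all 19 samples for levels. DESeq2 1.42.0, library sizes, other filters, pooled or exchanged controls, a joint fit, a replicate block and leaving out each replicate were tried. The fit was also run on simulated data with large changes and less spread than the shMITF samples show. That run does not cover smaller changes or wider spreads. Lengths and GRCh38 positions came from GENCODE 29 by identifier and promoters from RefSeq, and no hg19 coordinates were mixed with them. The 10 genes and all lists were chosen with earlier results of these data known. Genes of other lists were named where they had one of the 2 highest or 2 lowest log2 changes among the called genes of a list, with groups that did not overlap and a mean of at least 100 counts in the higher group, and some genes that this rule selects are left out here. The study states in general terms that its experiments were repeated, but the sources do not tie each sequenced sample to an infection of its own, so p-values measure only the spread between these samples, which may be technical. Python 3.11.15 made tables and figures.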

Additional observations from a re-analysis of the deposited data

Results flagged for a closer look

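The shBRG1 effect differed between 501Mel and Hermes 3A cells, by the interaction test across all genes, for 8 of the 10 genes, and the shMITF effect for 1. On the log2 scale, as 501Mel minus Hermes 3A, the shBRG1 differences were -3.30 for BCL2A1, -0.82 for BCL2, 0.43 for MCL1, -0.48 for BCL2L11, 0.44 for BMF, 0.64 for BID, -0.48 for BAD and 1.87 for BIK, and the shMITF difference was 3.18 for BIK. The lines also differed in medium, and the 501Mel effects were taken against different control groups for the 2 knockdowns. In these fits 57.9% and 2.99% of all genes passed.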

How the results depend on the processing

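Values for single genes under the alternatives were computed for the 10 genes and for genes of the other lists. The latter were chosen because they were called in these data, so the tally does not describe the 10 genes alone. Of these values, 1298 kept their direction and their side of the threshold and 53 fell short of the threshold. A further 17 passed it newly and 30 changed sign, the last mostly for genes near 0. Where the count of genes passing or called, or a share, moved by over 1.5 times or 1 SD, the cause was not tested. With library sizes alone, 2 of the 10 genes instead of 1 were called up in 501Mel shBRG1, MCL1 in Hermes 3A shBRG1 turned to 0.015, and BAK1 turned to 0.088 in 501Mel shMITF and 0.012 in Hermes 3A shMITF. With at least 10 counts in every sample, fewer genes were tested and 5183 instead of 8024 genes were called in 501Mel shBRG1, 1056 instead of 1594 in Hermes 3A shBRG1, 4406 instead of 7747 between the lines and 3558 instead of 6282 between the 501Mel controls, and BAK1 in 501Mel shMITF turned to 0.014.

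With the 501Mel controls pooled, 6 of the 10 genes passed with shBRG1 and, with shMITF, 1 passed and 1 was called up, with 575 instead of 1592 calls over all genes. In that fit of shMITF the log2 changes of BCL2L1 (-0.064), BCL2L11 (-0.28), BID (0.41) and BAK1 (0.33) changed sign. With shSCR2 in place of shSCR1 between the lines, 0 genes were called higher in 501Mel and BMF turned to -0.79. For 501Mel shMITF, DESeq2, no filter and a joint fit of the line each called 1 gene down, and the joint fit passed 4 genes and called 2518 over all genes. In Hermes 3A shBRG1 the joint fit passed 4 genes instead of 7, and without a filter 1 gene instead of 2 was called lower in shSCR2 against shSCR1.

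Replicate numbers are shared between groups. Correlations of same-numbered samples ran from -0.14 to 0.29, and 1 of 3 samples correlated best with its own number in each of the 3 comparisons with 3 replicates. In 501Mel shMITF 2 of 2 samples did, at 0.090 against -0.090 for the other number. With 2 samples a group the deviations mirror each other, so either both samples or neither had to do so. With so few samples these values cannot settle whether equal numbers mark pairs. A replicate block called 1 gene down (BCL2A1) in 501Mel shMITF, where 3 genes passed, and over all genes gave 8014, 1857, 1613 and 1213 calls in the 4 knockdown comparisons, against 8024, 1592, 1594 and 1220 without it.

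Leaving out each replicate in turn gave, for 501Mel shBRG1, 0 to 1 genes called up. For 501Mel shMITF it gave 0 to 1 called down, 2 to 4 passing and 956 to 2091 calls over all genes, with BCL2L11 from -0.061 to 0.32 and BAK1 from -0.082 to 0.037. For Hermes 3A shMITF, 1 to 2 were called up, 1 to 2 down and 2 to 5 passed, with 590 to 1559 calls over all genes, BID from -0.030 to 0.063 and BAK1 from -0.29 to 0.027. Between the 501Mel controls 1 to 3 were called lower and BIK ran from -0.49 to 0.11. For the difference between lines, the shBRG1 value of BAK1 ran from -0.066 to 0.16, while for shMITF BAK1 ran from -0.040 to 0.26 and BMF from -0.18 to 0.29, with 1 to 2 of the 10 genes passing and 152 to 1298 over all genes, against 576 in the full fit.

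The share of survival genes with the longest transcript as length was 78.6% in 501Mel shSCR1, 70.2% in shSCR2, 82.1% in Hermes 3A shSCR, 66.0% in shMITF and 77.9% in shBRG1. With all lengths equal it was 77.7% in 501Mel shBRG1, 77.9% in shSCR2, 70.5% in shMITF, and 70.9% in Hermes 3A shMITF and 81.3% in shBRG1. Depth limits BIK most, with 12 to 74 counts in the 501Mel controls and shBRG1.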
